A study of Mus musculus with 288 samples.

Results

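Casr, Mc4r, Grm4, Tlr5 and Gfra1 are receptor genes that were read here in single duodenal cells of GLU-Venus mice, and the 5 genes are 5 of the 46078 mouse genes in the deposited table. They were chosen by their measured excess of RNA in the cells that carry the pregnancy zone protein gene Pzp, so that excess is given as a description without a test. A Pzp cell is a cell with at least 100 counts of Pzp per 1000000 counts on mouse genes (CPM). Of 288 cells, 250 had at least 20000 reads on mouse genes with at most 20% of them on mitochondrial genes. Of these, 65 were Pzp cells and 185 were other cells.

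The mice were male, aged 20 to 21 weeks and on a C57BL6 background, and all carried the fluorescent protein Venus under the proglucagon promoter. Cells of the proximal small intestine were sorted by fluorescence and sequenced by Smart-seq2, which copies full-length RNA and neither marks the strand nor adds molecular identifiers. The labels call all cells L-cells and name the pool of each cell, but neither its mouse nor its fluorescence. By the study's methods the cells came from 3 mice, and non-fluorescent control cells were sorted with the mice sequenced at low depth. Each pool is taken as 1 replicate, and p-values measure the spread between these pools only. All mice carry the same transgene, and no group was treated.

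Pools SLX-11175 and SLX-11179 were shallow, with medians of 52571 and 70726 reads per cell, and pool SLX-9703 was deep, with a median of 1975706. The Pzp cells numbered 15, 22 and 28 in the 3 pools (the shallow SLX-11175, the shallow SLX-11179 and the deep pool, the order used throughout), against 60, 65 and 60 other cells. The Pzp values just below and just above the threshold were 92.2 and 123 CPM in SLX-11175, 43.6 and 115 CPM in SLX-11179, and 36.1 and 104 CPM in the deep pool. The label was checked against markers: all 6 enteroendocrine markers were read in the Pzp cells of every pool, summing to 2813 to 6236 CPM, against 6123 to 25726 CPM in the other cells. Enterocyte markers were also high in Pzp cells, at 2532, 2572 and 3399 CPM (other cells 1289, 1659 and 4070 CPM), although Alpi was at 0 in those of the shallow pools, and goblet markers were at 208, 178 and 297 CPM (other cells 212, 34.7 and 17.8 CPM) with Clca1 at 0. Stem cell markers were at 1.12, 305 and 0.9504 CPM in Pzp cells, with all 4 read in SLX-11179, where the other cells had 155 CPM. Leukocyte markers summed to at most 7.85 CPM in Pzp cells, but to 16881, 11303 and 70.3 CPM in the other cells, so the comparison class of the shallow pools held immune RNA, and the part of these other markers in the values below was not tested.

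Enteroendocrine cells release gut hormones when receptors on their surface meet nutrients, hormones or bacterial products. Casr, the calcium-sensing receptor, and Grm4, the metabotropic glutamate receptor 4, are class C G protein-coupled receptors, and Casr also responds to amino acids. Mc4r is the melanocortin 4 receptor, best known for the control of appetite in the brain. Tlr5 recognises bacterial flagellin and signals through the adaptor Myd88. Gfra1 binds glial cell line-derived neurotrophic factor and works with the receptor tyrosine kinase Ret. Tph1 makes the rate-limiting enzyme of serotonin synthesis in the gut, and Nts encodes the peptide neurotensin.

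In the GENCODE M21 annotation of mouse build mm10, Casr lies at chr16:36493696-36562141 and Grm4 at chr17:27422387-27521403, both on the minus strand. Tlr5 lies at chr1:182954788-182976044 on the plus strand and Gfra1 at chr19:58235604-58455909 on the minus strand. The counts are of reads on exons, and the merged exons span 4718 bases for Casr, 2803 for Mc4r, 5977 for Grm4, 4790 for Tlr5 and 5476 for Gfra1. The antisense gene Gm16277 shares exon bases with Gfra1 and had 0 reads in all 3 pools, although a read on shared bases cannot be assigned without strand.

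The promoter windows of the 3 members that could be printed here are shown, from 250 bases before to 50 bases after the RefSeq start site (GRCm38.p6, the assembly of mm10). The windows are chr16:36562085-36562384 for Casr (minus strand), chr1:182954538-182954837 for Tlr5 (plus strand) and chr19:58455349-58455648 for Gfra1 (minus strand). Capitals mark matches on either strand of CANNTG, the E-box bound by bHLH factors, and of ATTGAT, a core of ONECUT sites. ATTGAT was chosen because Onecut3 is among the genes most like Casr, as given further on. Over 32851 promoter windows of the same length, 72.3% held CANNTG and 7.54% held ATTGAT.
Casr: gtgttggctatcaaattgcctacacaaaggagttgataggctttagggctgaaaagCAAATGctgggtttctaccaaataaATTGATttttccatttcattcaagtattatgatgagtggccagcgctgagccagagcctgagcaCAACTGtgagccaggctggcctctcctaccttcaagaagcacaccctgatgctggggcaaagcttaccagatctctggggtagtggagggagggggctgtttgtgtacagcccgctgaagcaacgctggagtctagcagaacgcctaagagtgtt
Tlr5: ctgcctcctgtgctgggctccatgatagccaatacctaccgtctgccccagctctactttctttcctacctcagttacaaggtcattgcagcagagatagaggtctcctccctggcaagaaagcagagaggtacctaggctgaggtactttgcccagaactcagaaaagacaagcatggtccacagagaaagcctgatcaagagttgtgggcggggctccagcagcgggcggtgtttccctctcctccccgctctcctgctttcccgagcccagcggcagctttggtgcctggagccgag
Gfra1: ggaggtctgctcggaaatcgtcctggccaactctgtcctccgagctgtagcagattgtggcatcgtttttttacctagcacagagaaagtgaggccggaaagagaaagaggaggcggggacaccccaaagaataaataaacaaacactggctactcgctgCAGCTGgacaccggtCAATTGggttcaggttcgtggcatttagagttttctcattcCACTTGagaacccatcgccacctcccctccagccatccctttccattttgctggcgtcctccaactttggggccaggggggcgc
Casr had 2 matches of CANNTG and 1 of ATTGAT, Gfra1 had 3 of CANNTG and 0 of ATTGAT, and Tlr5 had 0 of either. No motif was thus shared by all 3 windows, and a match or its absence says nothing of a factor's binding.

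The level of each receptor is the sum of its reads over the cells of a class and pool, in CPM over the same cells. Casr reached 54.98, 56.8 and 49.9 CPM in the Pzp cells of the 3 pools, against 0.199, 6.73 and 5.99 CPM in the other cells. The Pzp cells were above the other cells in every pool, and their level was much the same in the 3 pools, at 53.9 ± 3.58 CPM (SD, n = 3). From the read counts, Casr was 276-fold higher in SLX-11175 (95% interval 47.3 to 11119, from 1 read in the other cells), 8.43-fold (5.86 to 12.3) in SLX-11179 and 8.33-fold (7.65 to 9.07) in the deep pool. Reads without molecular identifiers are not independent molecules, so this and the like intervals cover counting error only. In the fit with pool as a block, Casr differed by 3.43 ± 0.73 (SE) on the log2 scale between Pzp and other cells.

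Mc4r had the highest level of the 5 in Pzp cells. Its level was 103, 105 and 125 CPM in Pzp cells and 2.59, 17.4 and 11.99 CPM in other cells. The summed level was higher in Pzp cells in every pool, and the fitted difference was 3.10 ± 0.47 on the log2 scale. Single cells of the classes overlapped: in SLX-11179 an other cell reached 333 CPM and a Pzp cell had 0 CPM. In the deep pool, where even a low level gives reads, all 28 Pzp cells had at least 1 read of Mc4r, against 32 of 60 other cells.

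Grm4 was the weaker class C receptor. It reached 12.3, 19.7 and 19.7 CPM in Pzp cells and 5.18, 3.22 and 1.88 CPM in other cells, with a fitted difference of 1.94 ± 0.74 on the log2 scale. The summed level was higher in Pzp cells in every pool, but the fold ran from 2.38 (1.06 to 4.99, counting error) in SLX-11175 to 10.5 (9.02 to 12.2) in the deep pool. Single cells overlapped here too, with an other cell of SLX-11179 at 165 CPM. A low level was widespread in the deep pool, where 23 of 28 Pzp cells and 47 of 60 other cells had at least 1 read, most of them below 10 CPM.

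Tlr5, the flagellin receptor, had the lowest level in the other cells. In the Pzp cells it reached 21.3, 21.0 and 36.01 CPM. The other cells had 0 reads of Tlr5 in SLX-11175, 1 read in SLX-11179 and 130 reads (1.17 CPM) in the deep pool. Against a floor of 3 counts over the other cells, Tlr5 was at least 35.7-fold higher in the Pzp cells of SLX-11175, and it was 143-fold (24.05 to 5827) and 30.8-fold (25.8 to 37.1) higher in SLX-11179 and the deep pool. Pzp cells held 100%, 94.4% and 95.8% of the summed per-cell CPM of Tlr5 in the 3 pools, against 62.4% to 86.4% for Mc4r.

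The level of Gfra1 varied between pools. In Pzp cells it was 3.37, 6.17 and 51.4 CPM, and in other cells 4.98, 2.34 and 1.93 CPM. The excess was 26.6-fold (23.1 to 30.7) in the deep pool, and the ratio was 2.64 (1.07 to 6.18) in SLX-11179 and 0.676 (0.131 to 2.21) in SLX-11175, where it rests on 3 reads in Pzp cells. The fitted difference was 1.46 ± 1.25 on the log2 scale, and without the deep pool it was -0.23. In that fit 227 of 13695 genes passed a false discovery rate of 0.05 (1.66%), 0.511% of the genes tested higher and 1.15% lower in Pzp cells, and nothing is read from the members' own p-values there. With every cell thinned to 20000 reads, the expected share of Pzp cells with a read of Gfra1 was 4.56%, 8.26% and 34.3%. Tph1 in the Pzp cells was also higher in the deep pool, at 149, 210 and 597 CPM, and so was the somatostatin receptor Sstr2, at 47.1, 17.3 and 77.5 CPM. Mouse, plate, sort and depth cannot be told apart as differences between these pools.

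**Figure D1:**
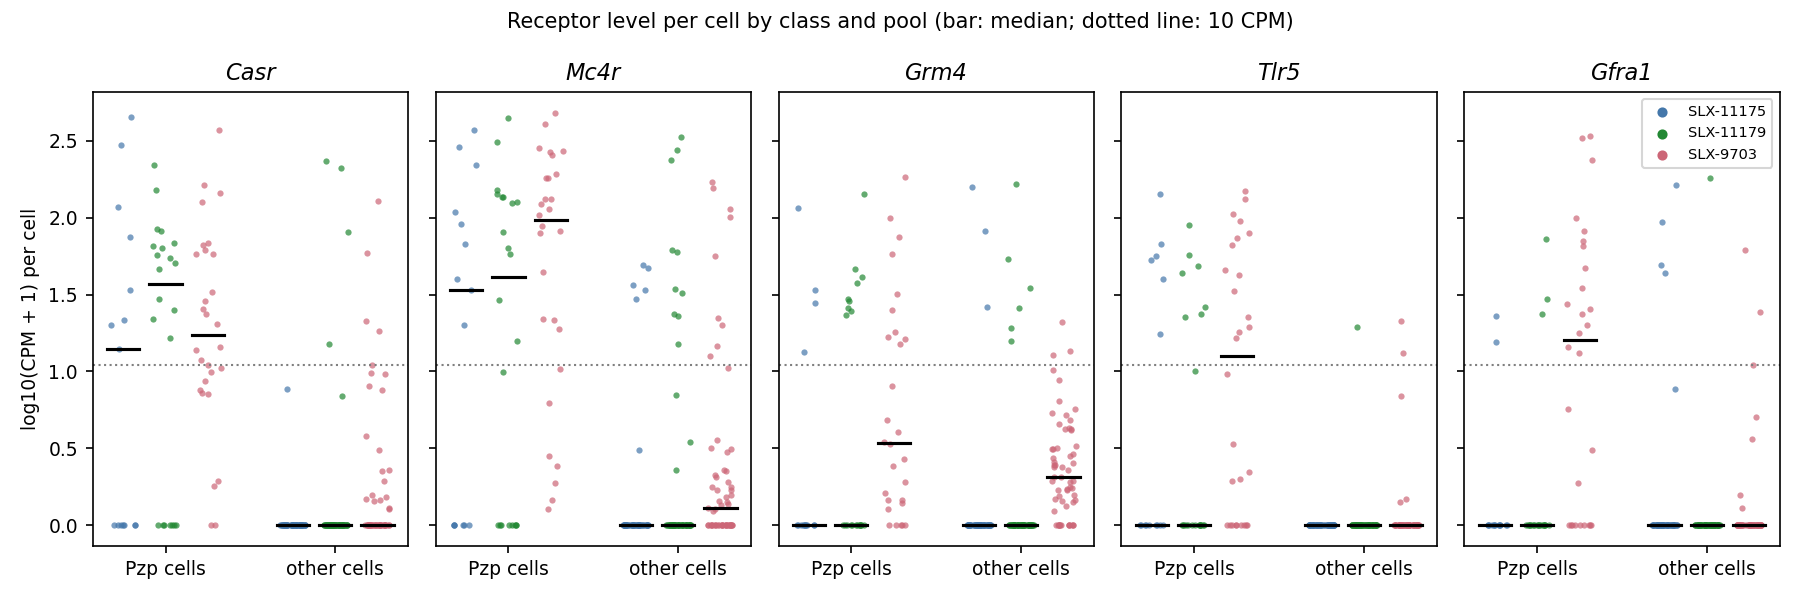
Level of each receptor in each cell, as log10(CPM + 1), for Pzp cells and other cells of the 3 pools. Points are cells, bars are medians and the dotted line is 10 CPM. Most other cells lie below the line, and Gfra1 rises above it in 16 Pzp cells of the deep pool but in 2 and 3 of the shallow pools.

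Per kilobase of merged exon, the levels of the receptors in Pzp cells fell in the order Mc4r, Casr, Tlr5, Gfra1 and Grm4. Mc4r reached 39.6 ± 4.33 CPM per kb (SD, n = 3 pools) and Casr 11.4 ± 0.76. The first places were separate, since the lowest pool of Mc4r (36.8) was above the highest of Casr (12.03), and the lowest of Casr (10.6) was above the highest of Tlr5 (7.52). Tlr5 at 5.45 ± 1.79, Gfra1 at 3.71 ± 4.92 and Grm4 at 2.89 ± 0.71 CPM per kb were not ordered the same way in every pool, and Gfra1 spanned the range of both neighbours.

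A cell was called positive for a receptor at 10 CPM or more. In most shallow cells a single read exceeds 10 CPM, so the shallow pools miss low levels that the deep pool shows. Casr was positive in 8 of 15, 15 of 22 and 17 of 28 Pzp cells, or 61.5% of all 65 (exact 95% interval 48.6% to 73.3%). Mc4r was positive in 9, 13 and 21 of them (66.2%, 53.4% to 77.4%). At this threshold they were the only members found in over 50% of Pzp cells.

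Tlr5 was positive in 6, 7 and 14 Pzp cells (41.5%, 29.4% to 54.4%) and Grm4 in 4, 9 and 10 (35.4%, 23.9% to 48.2%). Gfra1 was positive in 2, 3 and 16 (32.3%, 21.2% to 45.1%). The share for Gfra1 was 57.1% in the deep pool, and 13.5% in the shallow pools together. The intervals treat cells as independent and do not include the spread between pools.

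Levels varied widely between Pzp cells, also at high depth. Mc4r in the 28 Pzp cells of the deep pool ran from 0.268 to 483 CPM with a median of 95.7 CPM. Casr ran from 0 to 372 CPM with a median of 16.4 CPM, and Tlr5 from 0 to 148 CPM with a median of 12.1 CPM. Each receptor therefore had cells with almost none and cells with over 100 CPM in 1 pool. Gfra1 ran from 0 to 339 CPM (median 15.2 CPM) and Grm4 from 0 to 185 CPM (median 2.40 CPM). In the shallow pools the median was 0 CPM for Grm4, Tlr5 and Gfra1, and a few cells carried much of a level. The highest single cell held 61.2% of the summed per-cell CPM of Grm4 and 44.2% of that of Casr among the Pzp cells of SLX-11175.

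At 10 CPM or more, most Pzp cells carried several of the receptors. Of the 65, 7 Pzp cells had none of the 5, 8 had 1, 19 had 2, 18 had 3, 11 had 4 and 2 had all 5. Thus 50 of 65 (76.9%, but 41.5% with 50 CPM as the threshold) had at least 2, with 10 of 15, 15 of 22 and 25 of 28 in the 3 pools. The mean number per Pzp cell was 1.93, 2.14 and 2.79. Among the other cells 138 had none, 39 had 1, 7 had 2 and 1 had 3, so 8 of 185 (4.32%) had at least 2. This gap between the classes was fixed by the choice of the genes and is a description.

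**Figure D2:**
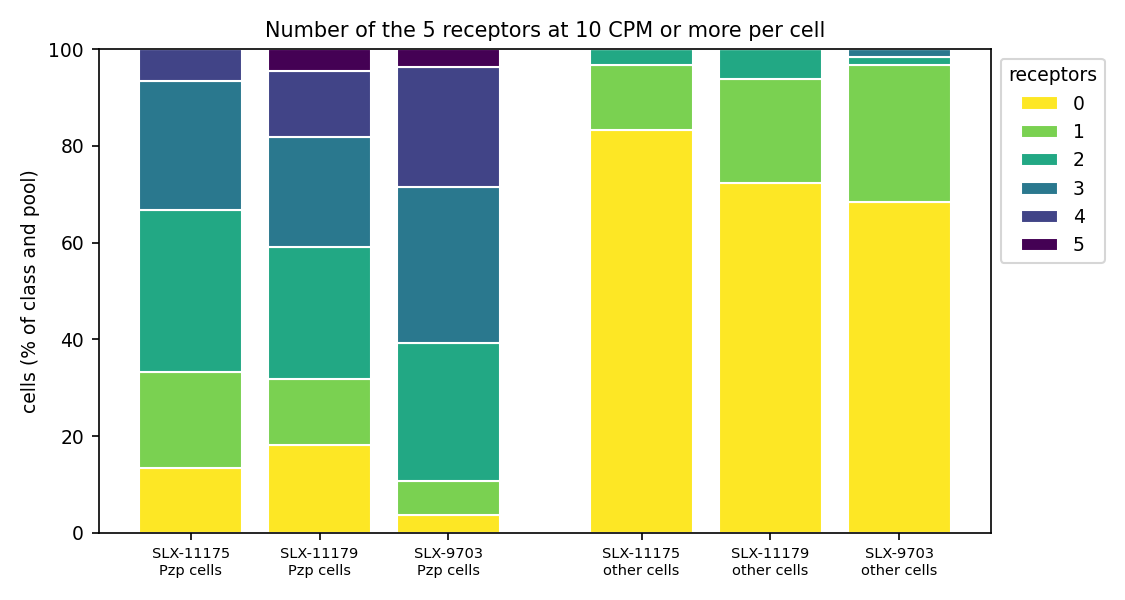
Share of cells (%) with 0 to 5 of the receptors at 10 CPM or more, for Pzp cells and other cells of each pool. In the deep pool 25 of 28 Pzp cells had at least 2 receptors, and over the 3 pools 50 of 65 Pzp cells had at least 2, against 8 of 185 other cells.

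No single set of receptors marked the Pzp cells. The 65 cells showed 24 combinations of the 5 receptors, with 11, 13 and 18 combinations within the 3 pools. The commonest was Casr with Mc4r and Tlr5, in 9 cells, followed by none of the 5 in 7 cells and Casr with Mc4r alone in 5. Even the deep pool, with 28 Pzp cells, spread over 18 combinations.

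**Figure D3:**
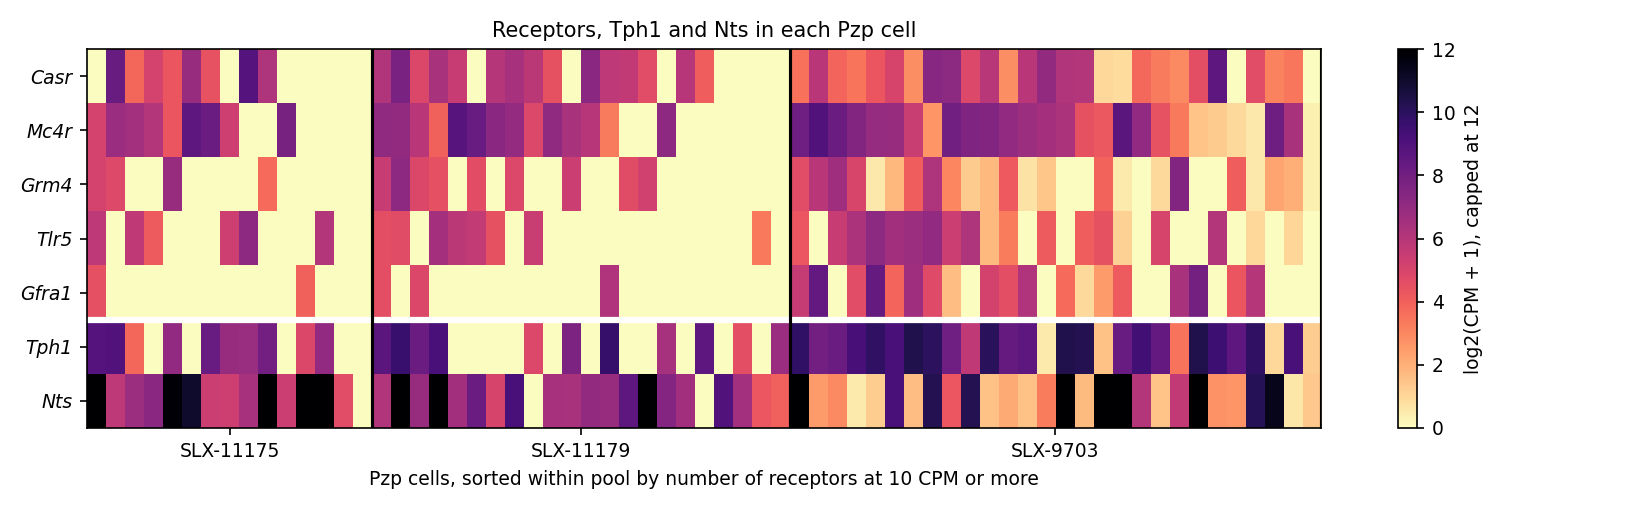
Each column is a Pzp cell, sorted within its pool by the number of receptors at 10 CPM or more, and the rows are the 5 receptors, Tph1 and Nts, coloured by log2(CPM + 1). Mc4r and Casr fill most columns, Gfra1 is filled mainly in the deep pool, and neighbouring cells carry different receptors.

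Casr and Mc4r, the most frequent pair, were both positive in 29 Pzp cells, with 11 positive for Casr alone of the pair, 14 for Mc4r alone and 11 for neither. Mc4r and Tlr5 overlapped in 23 cells. Of the 43 Pzp cells with Mc4r, 53.5% had Tlr5, against 18.2% of the 22 without Mc4r. By count of cells the direction was the same in each pool. Tlr5 was found in 4 of 9, 7 of 13 and 12 of 21 cells with Mc4r, and in 2 of 6, 0 of 9 and 2 of 7 cells without it. The summed level of Tlr5 did not follow, at 19.9, 31.5 and 35.4 CPM with Mc4r and 24.3, 1.75 and 37.7 CPM without it. In SLX-11175 the cells without Mc4r also had fewer reads, with a median of 38382 against 60571. In the edgeR fit that compared Pzp cells with and without Mc4r, with pool as a block, Tlr5 differed by 0.83 on the log2 scale with a 95% interval of -1.36 to 3.03 (adjusted p 1.00), so its summed level was not shown to differ.

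Casr and Grm4 were both positive in 14 cells, and Casr and Tlr5 in 19. Grm4 and Gfra1 were both positive in 11, of which 8 were in the deep pool, where 2 cells had Grm4 alone of the pair, 8 Gfra1 alone and 10 neither. Tlr5 and Gfra1 shared 8 cells, the fewest of the 10 pairs. A cell positive for 1 receptor was thus found with and without every other one.

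As a description, Pearson correlations of log2(CPM + 1) over the 28 Pzp cells of the deep pool, which share a library pool, ran from -0.15 for Casr with Grm4 to 0.30 for Casr with Tlr5. Grm4 with Gfra1 gave 0.26, Grm4 with Tlr5 0.18, Mc4r with Grm4 0.17, Mc4r with Tlr5 0.15 and Casr with Mc4r 0.13. The other pairs lay at -0.10 to -0.01. With the number of reads per cell the members correlated at -0.05 to 0.22 in the deep pool and at -0.13 to 0.50 in the shallow pools, highest for Mc4r in SLX-11175 and for Tlr5 (0.47) and Casr (0.43) in SLX-11179. Between members the shallow pools ran from -0.38 (Casr with Gfra1 in SLX-11175) to 0.45 (Mc4r with Tlr5 in SLX-11179), and several pairs changed sign between pools. No relation between members is read from them.

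The same question was asked of each receptor in turn, by comparing the Pzp cells at 10 CPM or more with those below, as sums per pool. None of the other members passed the false discovery rate of 0.05 in the edgeR fit for any of the 5 receptors, nor under any alternative run. The receptor that set the sides was itself not called in 4 of the 5 edgeR fits, with log2 differences of 4.90 for Casr (adjusted p 1.00), 6.07 for Grm4 (0.937), 6.03 for Tlr5 (0.706) and 7.54 for Gfra1 (0.119), so these fits say little about a smaller difference of another member. The fits call little of anything: over all genes tested, edgeR called 0 of 8311 genes (0% either way) for Casr, 2 of 8181 (0.0244%, of which 0.0122% higher and 0.0122% lower) for Mc4r, 0 of 8068 for Grm4, 0 of 8036 for Tlr5 and 1 of 12771 (0.00783%) for Gfra1. Unadjusted p-values under 0.05 numbered 199, 265, 204, 161 and 209, and DESeq2 called 3, 7, 5, 1 and 227 genes. The comparison for Gfra1 rests on 2 pools, since SLX-11175 had only 2 positive Pzp cells.

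Of the 2 genes called for Mc4r, the first was Mc4r itself, which defined the sides, and the other was Pyy, the gut hormone peptide YY. Pyy was at 1.66, 0.953 and 9.25 CPM in the Pzp cells with Mc4r and at 48.7, 17.5 and 431 CPM in those without. It was lower with Mc4r in every pool, by -5.23 ± 0.64 (SE) on the log2 scale, with an adjusted p of 0.0217 by edgeR. Few cells carried it: among those without Mc4r, 4 of 6, 2 of 9 and 2 of 7 had 10 CPM or more, against 1 of 9, 1 of 13 and 3 of 21 of those with it, and the highest cell, without Mc4r, reached 1738 CPM. The call was lost by edgeR, with a difference of much the same size, without the pool block (-5.00, adjusted p 1.00), without the deep pool (-4.36, 0.999), with 50000 reads as the minimum (-4.93, 0.237) and with both other thresholds for Mc4r (-4.59, 1.00 at 1 read and -4.36, 0.159 at 50 CPM). Too few cells on a side left out SLX-11175 at 50000 reads and the deep pool at 1 read. With Pzp cells at 1000 CPM or more the difference was -0.61 on the log2 scale. That setting left 0 cells in SLX-11175. It left 4 cells with and 4 without Mc4r in SLX-11179, and 12 and 3 in the deep pool. By DESeq2 its adjusted p was 5.51e-08.

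The gene called for Gfra1 was Atf3, a stress-induced transcription factor. It was at 1152 CPM with Gfra1 and 229 CPM without it in SLX-11179, and at 222 and 9.09 CPM in the deep pool, a difference of 3.21 ± 0.58 on the log2 scale (adjusted p 0.000317, edgeR). It rests on few cells, since 1 of 3 cells with Gfra1 had 10 CPM or more of Atf3 in SLX-11179 and 5 of 16 had it in the deep pool, against 5 of 19 and 4 of 12 cells without Gfra1. In SLX-11175, which the fit could not use, Atf3 was at 0 CPM in the 2 cells with Gfra1 and at 262 CPM in the 13 without. The call was lost without the pool block, with a smaller difference of 2.20 on the log2 scale (edgeR, adjusted p 1.00).

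Tph1 and Nts part the Pzp cells by serotonin synthesis and by neurotensin, and the receptors were compared between Pzp cells above and at or below the median of each gene in their pool. The medians were 113, 11.4 and 474 CPM for Tph1 and 104, 105 and 7.51 CPM for Nts. The sides held 7 and 8, 11 and 11, and 14 and 14 cells. A median did not in every pool part cells with the gene from cells without it. On the low side, 7 of 8, 9 of 11 and 0 of 14 cells had 10 CPM or more of Nts. For Tph1 these were 3 of 8, 0 of 11 and 10 of 14. At least 1000 CPM of Nts was found in 6, 3 and 9 Pzp cells. No receptor passed the false discovery rate of 0.05 in either split by edgeR, which called 0 of 8013 genes for Tph1 (208 at an unadjusted p under 0.05, and 1 by DESeq2) and 1 of 8061 (0.0124%) for Nts, namely Nts itself. Tph1 itself, which set the sides, differed by 4.29 on the log2 scale and was not called (edgeR, adjusted p 0.999), so an adjusted p in this split says little about a smaller difference.

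Mc4r had the difference largest beside its error in the Tph1 split. It was at 86.2, 47.8 and 83.2 CPM in the Pzp cells above the Tph1 median and at 120, 157 and 171 CPM in those at or below it. The level was lower on the high side in all 3 pools, by -0.99 ± 0.38 (SE) on the log2 scale with a 95% interval of -1.84 to -0.15, and the edgeR p was 0.0252 before and 0.999 after adjustment. Over the 11 alternatives run its difference stayed between -1.81 and -0.56. The number of positive cells did not show this, with 5 of 7, 7 of 11 and 10 of 14 on the high side against 4 of 8, 6 of 11 and 11 of 14 on the low side.

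Gfra1 lay the other way, at 4.54, 12.9 and 61.2 CPM above the Tph1 median and 2.22, 0 and 40.7 CPM at or below it. The high side was higher in all 3 pools, but on 2 reads against 1 in SLX-11175 and on 10 against 0 in SLX-11179. The fitted difference of 1.80 (interval -0.92 to 4.52, log2 scale) was within its error. Over the 10 alternatives run it ranged from 0.65 (without SLX-11179) to 3.01 (at least 100 CPM of Tph1). Casr was at 45.4, 67.1 and 62.7 CPM against 64.4, 47.3 and 35.8 CPM, so the pools did not share a direction (0.40, interval -0.70 to 1.503). Tlr5, at 20.4, 24.5 and 53.3 CPM against 22.2, 17.7 and 17.02 CPM, differed most in the deep pool (0.82, interval -0.81 to 2.45). Grm4 was at 24.95, 32.3 and 15.5 CPM against 0, 8.27 and 24.2 CPM, higher on the high side in the shallow pools and lower in the deep pool (1.70, interval -1.20 to 4.60).

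**Figure D4:**
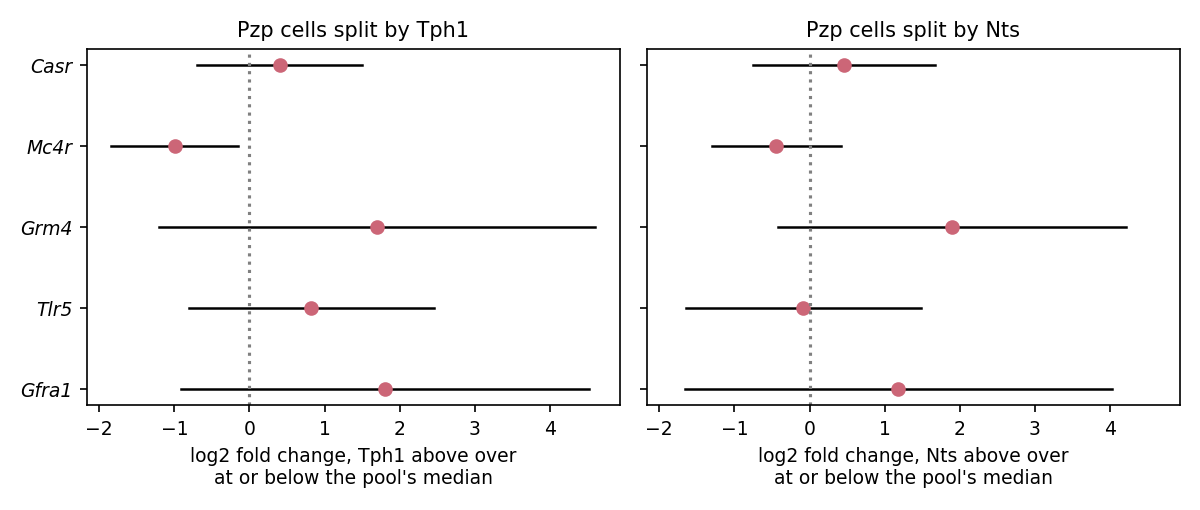
Log2 fold change of each receptor between Pzp cells above and at or below the pool's median of Tph1 (left) and Nts (right), with the edgeR estimate as a point and its 95% interval as a line. The interval of Mc4r in the Tph1 split, from -1.84 to -0.15, is the one that leaves out 0, before adjustment.

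Gfra1 was also counted at a fixed level of Tph1. Of 38 Pzp cells with at least 100 CPM of Tph1, 19 were positive for Gfra1, against 2 of the 27 below that level. Within pools these were 1 of 8 against 1 of 7, 3 of 8 against 0 of 14, and 15 of 22 against 1 of 6, so SLX-11175 showed no excess. The pools weigh unequally in the total, since the deep pool holds most Gfra1 and most Tph1. All 21 Pzp cells with Gfra1 had at least 10 CPM of Tph1, against 8 of 13, 8 of 19 and 8 of 12 of those without it.

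The other receptors were counted on the same sides, and no test of a difference from Gfra1 was run. Casr was positive in 26 of the 38 Pzp cells with Tph1 and in 14 of the 27 below, Mc4r in 27 and 16, Tlr5 in 18 and 9, and Grm4 in 17 and 6. In SLX-11175 Grm4 was positive in 4 of 8 against 0 of 7, Casr in 5 of 8 against 3 of 7 and Tlr5 in 4 of 8 against 2 of 7. In SLX-11179 Grm4 was positive in 5 of 8 against 4 of 14, Casr in 6 of 8 against 9 of 14 and Tlr5 in 3 of 8 against 4 of 14. The deep pool had Grm4 in 8 of 22 against 2 of 6, Casr in 15 of 22 against 2 of 6 and Tlr5 in 11 of 22 against 3 of 6. Read from the receptor's side, the summed level of Tph1 was 329, 335 and 612 CPM in Pzp cells with Grm4 and 74.7, 132 and 588 CPM in those without (1.03 ± 0.38 on the log2 scale, edgeR p 0.0218, adjusted 1.00). For Gfra1, in 2 pools, Tph1 was at 639 and 756 CPM with it and at 152 and 373 CPM without it (1.28 ± 0.49, edgeR p 0.00922, adjusted 1.00). Neither difference passed after adjustment. For Mc4r, Tph1 was at 171, 203 and 586 CPM with it and at 104, 222 and 625 CPM without it (0.14, interval -0.59 to 0.87). The lower Mc4r of the Tph1 split was thus not seen from this side. The difference of Tph1 was 0.81 (interval -0.22 to 1.84) for Casr and 0.42 (-0.22 to 1.07) for Tlr5. Over the deep Pzp cells, the correlation with Tph1 was 0.40 for Gfra1, 0.32 for Casr, 0.18 for Tlr5, 0.04 for Mc4r and -0.11 for Grm4. In the shallow pools it was 0.25 and 0.50 for Gfra1, 0.23 and 0.05 for Casr, 0.27 and 0.07 for Tlr5, -0.06 and 0.06 for Mc4r, and 0.56 and 0.26 for Grm4, whose sign thus differed from the deep pool.

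Nts reached 346956 CPM in a Pzp cell, and no receptor differed between the sides of the Nts split beyond its error. Grm4 came closest, at 21.3, 36.1 and 21.8 CPM above the Nts median and 2.38, 4.73 and 17.8 CPM at or below it. Its summed level was higher on the high side in every pool (1.89, interval -0.42 to 4.21 on the log2 scale, edgeR p 0.0995 and adjusted 1.00). Positive cells numbered 3 of 7, 7 of 11 and 4 of 14 on the high side and 1 of 8, 2 of 11 and 6 of 14 on the low side, so the deep pool went the other way by count. With Pzp at 1000 CPM or more, which left 0 cells of SLX-11175, the difference was -0.26. Casr was at 40.4, 85.2 and 61.1 CPM against 71.3, 30.8 and 40.2 CPM, and Mc4r at 85.1, 67.1 and 134 CPM against 124, 140 and 117 CPM. Their pools went in different directions. Tlr5 was at 17.01, 21.9 and 38.1 CPM against 26.1, 20.1 and 34.2 CPM, and Gfra1 at 6.38, 11.6 and 33.9 CPM against 0, 1.18 and 66.6 CPM. The fitted differences were 0.46 (interval -0.76 to 1.67) for Casr, -0.44 (-1.30 to 0.42) for Mc4r, -0.08 (-1.64 to 1.48) for Tlr5 and 1.18 (-1.65 to 4.02) for Gfra1, so differences of about 1 log2 unit in either direction were within the error for these receptors except Mc4r upward and Casr downward. Between Pzp cells with and without Gfra1, Nts differed by -1.66 (-3.16 to -0.16) and was not called. SLX-11179 and the deep pool went in opposite directions there, at 105 and 3315 CPM with Gfra1 and 5543 and 548 CPM without it. Nts differed by -1.44 (-3.09 to 0.21) for Mc4r, -1.16 (-2.43 to 0.11) for Tlr5, 1.16 (-1.71 to 4.04) for Casr and 1.36 (-1.42 to 4.13) for Grm4.

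Outside the Pzp cells the receptors were looked for in 29 Gip-high, 53 Gcg-high, 37 Cck-high and 66 remaining cells, in that order of precedence, a class being high at 10000 CPM or more of its hormone. The remaining cells are high in none of these 3 hormones, but they had the highest level of the hormone gene Nts of the 4 classes on average, at 31495 ± 20264 CPM (SD, n = 3 pools). They are a mixture: leukocyte markers summed to 31195, 23404 and 402 CPM in them, enterocyte markers to 1039, 943 and 11993 CPM, and enteroendocrine markers to 379, 851 and 1009 CPM. The part of these cells in the shares below was not tested. Gip, Gcg and Cck encode glucose-dependent insulinotropic polypeptide, proglucagon and cholecystokinin. Mc4r was positive in 24 of these 185 cells (12.97%), of which 14 were Gcg-high and 8 Cck-high. Its share was 18.8%, 33.3% and 26.3% in the Gcg-high cells and 11.1%, 30.8% and 20.0% in the Cck-high cells of the 3 pools. In Gip-high and remaining cells it was 3.45% and 1.52%, with 1 cell each. Mc4r thus appeared outside Pzp cells mainly in cells rich in Gcg or Cck, in every pool.

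Grm4 lay elsewhere. It was positive in 12 other cells (6.49%), of which 10 were remaining cells, 1 Gcg-high and 1 Cck-high. Of these 10 cells 6 had over 10000 CPM of Nts. Casr was positive in 9 (4.86%): 4 remaining cells, all in SLX-11179 and with 11915 to 358705 CPM of Nts, 3 Gcg-high, 1 Cck-high and 1 Gip-high. Gfra1 was positive in 8 (4.32%), with 3 Gip-high, 2 Gcg-high and 3 remaining cells, and Tlr5 in 3 (1.62%), with 2 Gcg-high and 1 remaining cell. In SLX-11175, 0 of 60 other cells had Casr or Tlr5 at 10 CPM, which allows a share of up to 5.0% (3 counts of the total). This limits cells in which the RNA was detected at this depth, not cells that hold it. Free RNA in the wells was not measured, and no class was fixed in which a receptor had to be absent. The lowest share of each receptor in any of these classes is the nearest measure of its background here.

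**Figure D5:**
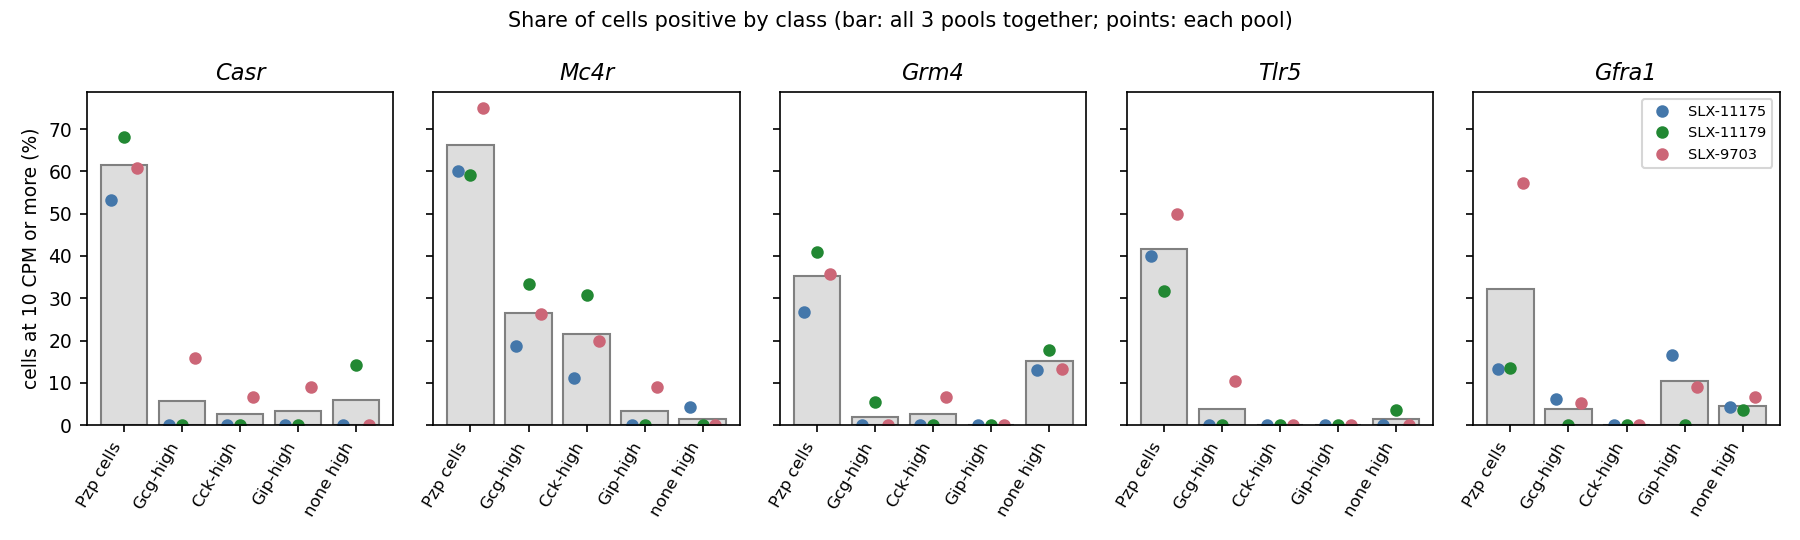
Share of cells (%) at 10 CPM or more for each receptor in Pzp cells and in the Gip-high, Gcg-high, Cck-high and remaining cells ("none high"), with bars for the 3 pools together and points for each pool. Outside Pzp cells Mc4r is highest in the Gcg-high (26.4%) and Cck-high (21.6%) cells and Grm4 in the remaining cells (15.2%).

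Some of the cells outside the class carried Tph1 or Nts without Pzp at 100 CPM. Of the 11 other cells with at least 100 CPM of Tph1, 4 had Grm4, 3 had Casr, 3 had Gfra1 and none had Mc4r or Tlr5. Among the 174 others below that level the numbers were 8, 6, 5, 24 and 3. In SLX-11179, a remaining cell with 221262 CPM of Nts and 169 CPM of Tph1 had 211 CPM of Casr and 52.8 CPM of Grm4, and another with 358705 CPM of Nts had 79.3 CPM of Casr and 181 CPM of Gfra1. In SLX-11175 a cell with 416764 CPM of Nts had 157 CPM of Grm4. Casr, Grm4 and Gfra1 were thus each found in cells very rich in Nts but low in Gip, Gcg and Cck, which were singled out after their values were seen. A read of Pzp was present in 4 of the 9 other cells with Casr, 7 of 24 with Mc4r, 2 of 12 with Grm4, 2 of 3 with Tlr5 and 2 of 8 with Gfra1. Over all other cells, 58 of 60, 60 of 65 and 15 of 60 had no read of Pzp in the 3 pools. Most other cells of the deep pool thus had such a read, and few of the shallow pools did.

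Partners of the receptors were read with the same fit. Ret, through which Gfra1 signals, was at 130, 135 and 136 CPM in Pzp cells and at 36.3, 59.4 and 75.2 CPM in other cells, higher in every pool by 0.74 ± 0.22 (SE) on the log2 scale but short of the false discovery rate (edgeR, adjusted p 0.223). Ret was thus at much the same level in the Pzp cells of the 3 pools while Gfra1 was not. Myd88, the adaptor of Tlr5, was at 4.49, 9.26 and 7.13 CPM in Pzp cells and did not pass the test (-0.55 ± 0.81, edgeR, adjusted p 0.888). Mrap2, an accessory protein of melanocortin receptors, had 0 reads in the Pzp cells and did not pass the filter on low counts. Sstr2 differed by 2.63 ± 0.74 (edgeR, adjusted p 0.184).

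Of 82 genes found from 5 lists of relatives and partners (melanocortin, class C receptors, GDNF family, Toll-like, G proteins and coupling), 36 passed the filter on low counts and edgeR called 0 at a false discovery rate of 0.05, against 1.66% of all genes tested. An unadjusted p under 0.05 was reached by 4 of the 36, against 1535 of all 13695 genes, a share near that background, and DESeq2 called 2, against 646 of 31251 genes. The median log2 difference of the 36 was 0.12, beside -0.13 over all genes. By list, 1 of 8 melanocortin genes, 3 of 20 class C receptors, 6 of 12 GDNF family genes, 13 of 24 Toll-like genes and 13 of 18 G protein genes were tested, with medians of -0.32, 0.38, 0.23, -0.00 and 0.13. The genes called by DESeq2 were Tlr2 and Plcb1, in opposite directions, and both were named after their values were seen. Plcb1, a phospholipase C that acts downstream of G proteins, was at 0, 1.23 and 0.051 CPM in Pzp cells and 7.77, 3.37 and 5.83 CPM in other cells, lower in every pool (edgeR, adjusted p 0.193, and 0.00648 by DESeq2). Tlr2, a receptor for bacterial lipoproteins, was at 8.98, 43.2 and 79.1 CPM in Pzp cells and 2.19, 1.32 and 16.3 CPM in other cells, by edgeR 2.57 ± 0.64 on the log2 scale with an adjusted p of 0.135.

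Of the 11 other receptors that the study names, and which it chose on these cells, 10 were tested and 1 was called by edgeR. This was Cnr1, the cannabinoid receptor 1, at 1.12, 9.87 and 2.56 CPM in Pzp cells and 24.7, 49.02 and 29.9 CPM in other cells. It was lower in Pzp cells in every pool, by -3.66 ± 0.47 (SE) on the log2 scale (edgeR, adjusted p 0.0134). Beside the same background over all genes, an unadjusted p under 0.05 was reached by 5 of the 10 and DESeq2 called 5, with Ffar2 and Sstr2 higher and Gpr119, Cnr1 and Scarb1 lower. Their median difference was -1.01.

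The 3 genes whose pattern was most like each receptor were taken over the 88 cells of the deep pool, among 13235 genes with a read in at least 20% of them. By Pearson correlation of log2(CPM + 1), Casr was most like Cyp2j5 (0.70), Onecut3 (0.69) and Pgc (0.67), and Mc4r most like Habp2 (0.67), Pzp (0.66) and Cyp2j5 (0.64). Tlr5 was most like Cyp2j5 (0.69), Habp2 (0.64) and Pzp (0.61), and Gfra1 most like Habp2 (0.68), Tph1 (0.66) and Gjb1 (0.63). Cyp2j5 or Habp2 was thus among the first genes of each of these 4 receptors. Grm4 differed, with Ptpn3 (0.50), Fam89a (0.43) and Gm8893 (0.41). These cells share a library pool and mix Pzp cells with others, so the values carry the difference between the classes.

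Within the 28 Pzp cells of the deep pool Cyp2j5 and Habp2 were not among the first 3 genes of any receptor. Over 13677 genes, Casr was most like Kansl2-ps (0.69), Mc4r like Paxbp1 (0.67), Tlr5 like Cdc42ep5 (0.75) and Gfra1 like Gnai3 (0.71). Ptpn3 stayed first for Grm4 (0.79) and was the gene that kept its place in both sets of cells. Tlr5 stood 18th among the genes most like Casr over all cells of the pool and 1012th within the Pzp cells. These are the highest of 13677 correlations over 28 cells and are given as a description.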

How the data were processed

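Single cells were sequenced by Smart-seq2 from FACS-sorted GLU-Venus duodenal cells. The authors deposited counts of reads per gene; the submitters' processing notes name GSNAP, HTSeq 0.5.3p3 and mm10. The 5 lines that name no gene held 77.6% of all counts and were left out, as were 92 spike-ins and 4 columns that match no sample. Of 46078 mouse genes, 45143 were found in GENCODE M21. Cells with under 20000 reads on mouse genes or over 20% on mt- genes were removed, which left 75, 87 and 88 cells with 20121 to 4368674 reads.

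Counts were summed per pool and class (3 cells or more) and tested with edgeR 4.0.16 (TMM, filterByExpr, quasi-likelihood, Benjamini-Hochberg, false discovery rate 0.05) in R 4.3.3, with pool as a block. DESeq2 1.42.0 was an alternative, and the others were other limits on reads, mt- share, Pzp, Tph1, Nts and positive cells, no filter, no block and leaving out each pool. The edgeR fits were also run on simulated counts, and the share of changes found there is not given here. Pools were taken as pairs because both classes share the library pool of the labels. Deviations from the class means correlated at 0.197, 0.163 and 0.458 within pools and at -0.318 to 0.112 between them. Between the shallow pools the values were 0.087 and 0.112. Deviations from a mean of 3 pools sum to 0 and also carry the depth of the deep pool, so this contrast does not decide the pairing. Exact (Clopper-Pearson) 95% intervals came from scipy 1.17.1 in Python 3.11.15 and cover counting error only. A count of 0 was given a limit of 3 counts.

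The members and lists were chosen with earlier results of these data known. Genes named were the 5 members, list genes past the false discovery rate in the Pzp comparison, Ret, Mrap2, Myd88 and Sstr2, up to 3 called genes per direction and split, and the 3 genes most like each member in either set of cells of the deep pool, of which the first is given within Pzp cells. The authors' cell clusters and the fluorescence of each cell were not used here.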

Additional observations from a re-analysis of the deposited data

Results flagged for a closer look

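The excess of Gfra1 in Pzp cells went in opposite directions in different pools, with log2 ratios of Pzp cells over other cells of -0.57 (SLX-11175), 1.40 (SLX-11179) and 4.73 (the deep pool). The difference between the pools was not tested, since each pool gives 1 value. The first of these rests on 3 reads in Pzp cells and 25 in other cells, with a counting interval of the ratio from 0.131 to 2.21.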

How the results depend on the processing

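Genes called between Pzp and other cells numbered 227, and 646 by DESeq2, 863 with no filter on low counts, 108 with no replicate block (pool as pairing) and 89 to 403 with a pool left out (89 without SLX-11175, 403 without SLX-11179, 167 without SLX-9703). For the splits by Tph1, Nts, Casr, Mc4r, Grm4, Tlr5 and Gfra1, DESeq2 called 1, 3, 3, 7, 5, 1 and 227 genes, and no filter gave 7, 8, 4, 10, 11, 4 and 3. Without the replicate block the Nts, Mc4r and Gfra1 splits gave 0, 1 and 3. With a pool left out the ranges were 0 to 5 (Tph1), 1 to 8 (Nts), 0 to 7 (Casr), 0 to 12 (Mc4r), 0 to 3 (Grm4) and 1 to 3 (Tlr5). At 1000 CPM of Pzp, 0 Pzp cells of SLX-11175 were left, so values at that setting rest on SLX-11179 and the deep pool. Pzp at 1000 CPM gave 2 for Tph1 and 6 for Grm4, Tph1 at 100 CPM gave 1, 1 read as positive gave 0 for Mc4r and 2 for Gfra1, and 50 CPM gave 1 for Mc4r and 2 for Tlr5. Which causes lie behind these was not tested. The log2 difference turned for Grm4 in the Tph1 split with Pzp at 1000 CPM (-1.34). In the Nts split that setting turned Casr (-0.22), Grm4 (-0.26), Tlr5 (0.56) and Gfra1 (-2.37), 50000 reads turned Mc4r (0.19) and Tlr5 (0.30), Nts at 1000 CPM turned Tlr5 (0.42) and Gfra1 (-0.17), and leaving out a pool gave -0.010 to 0.99 for Casr and -0.24 to 0.12 for Tlr5. Gfra1 between Pzp and other cells ran from -0.23 to 2.92 with a pool left out. The share of Pzp cells positive was 75.4% (Casr), 78.5% (Mc4r), 55.4% (Grm4) and 50.8% (Tlr5) at 1 read, 33.8%, 52.3%, 9.23% and 20.0% at 50 CPM, and 41.5%, 55.6%, 20.3% and 27.1% after thinning to 20000 reads. For Casr it was 54.1% with Pzp at 10 CPM and 82.6% at 1000 CPM, and cells with at least 2 receptors made up 41.5% at 50 CPM, an alternative chosen after seeing the data. Of single receptors' values, 146 kept their direction and side of the threshold or moved within the spread, 9 moved and 12 turned. Between Pzp and other cells the median of all genes was -0.13 by edgeR and 0.03 by DESeq2, which changed both the scaling and the genes tested (31251 against 13695). With no filter on low counts edgeR gave -0.41 over 31251 genes. In the Gfra1 split the median was -0.39 by edgeR and 0.02 by DESeq2. Fits could not be made for Pzp at 1000 CPM in the Casr, Tlr5 and Gfra1 splits, 50 CPM in the Grm4 and Gfra1 splits, and a pool left out or 50000 reads in the Gfra1 split. In the Mc4r split, 50000 reads left out SLX-11175 and 1 read as positive left out the deep pool. The Casr split also lost the deep pool at 1 read, and the Tlr5 split lost SLX-11179 at 50 CPM. Depth limits low receptors in the shallow pools, where a cell of median depth cannot show under 10 CPM.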
